A study of Mus musculus with 12 samples.

Results

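The effect of the *Tshr* MKO genotype on the transcriptome was compared between bone-marrow-derived macrophages (BMDMs) and liver in 1 model with 4 groups and 12 RNA-seq libraries, 3 per group. Of the 55335 genes listed, the 11095 with a mean of at least 1 CPM (counts scaled to the library total) in both tissues were compared. The CPM values given below are scaled with the TMM factor of the library as well, so a gene near the limit can show a mean under 1. *Tshr* encodes the receptor of thyroid-stimulating hormone (TSH). *Tshr* f/f mice, called controls for the BMDMs, carry a *Tshr* allele flanked by loxP sites, and *Tshr* MKO mice carry the same allele with a Cre recombinase driven from the Lyz2 locus, which is active in macrophages, monocytes and neutrophils. By the labels, the mice were male littermates, 6 weeks old at the isolation of the marrow or the start of the diet. BMDMs of both genotypes were grown for 7 days with M-CSF at 10 ng/mL and then received TSH at 1 ng/mL for 24 hours, so no library came from BMDMs without TSH. The liver donors of both genotypes ate a high-fat diet for 9 weeks, fasted for 8 hours and were killed 5 minutes after insulin at 1.5 U/kg. Tissue therefore cannot be told apart from culture, TSH, diet, fasting and insulin. The labels do not say whether the 3 libraries of a group came from separate animals, while the study's supplement gives n = 3 per group for the mice. P-values describe the spread between these libraries.

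The TSH receptor is a G protein-coupled receptor best known in the thyroid, where it raises cAMP. BMDMs are cultures of a cell type in which the Lyz2 promoter is active, whereas liver RNA comes mostly from hepatocytes, in which it is largely silent, with resident macrophages (Kupffer cells), endothelial and stellate cells as minor sources. The mean genotype effect is the average of the log2 fold changes of BMDMs and liver, and the interaction is the liver log2 fold change minus the BMDM log2 fold change. A positive interaction marks a gene that was relatively higher in *Tshr* MKO livers than in *Tshr* MKO BMDMs.

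The libraries held 28962878 to 40954211 counts, and 3 counts corresponded to 0.0733–0.104 CPM. Of these counts, 93.17–97.28% in BMDMs and 61.3–64.06% in livers fell in the genes compared. *Tshr* itself had at most 5 counts in any BMDM library and 0 in each liver library, so its loss could not be checked. Of 11 hepatocyte markers, all were at 0 in *Tshr* f/f BMDMs and 10 in *Tshr* MKO BMDMs, where *Apoa1* had 3 counts in 1 library, and *Clec4f*, which marks Kupffer cells, was at 0 in all BMDMs. *Alb* in liver was at 60363–94531 CPM. Among BMDMs, *Tshr* f/f replicates 2 and 3 stood apart: their counts differed from each other more than those of any other pair of replicates (chi-square of 573 per degree of freedom, against 14.1–363), limma gave them the lowest library weights (0.326 and 0.144, against 0.548–4.58), and replicate 3 had a TMM scaling factor of 0.9968 against 1.342–1.512 in the other 5. A table of receptor genes in the study's supplement heads the liver libraries with the opposite genotypes: all 72 of its values equal the count of a library labelled with the other group. The livers are therefore called livers labelled *Tshr* f/f or *Tshr* MKO. If these labels were exchanged, each liver log2 fold change would change sign, and the genes described as moving together and in opposite directions would change places.

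The genotype effects of the tissues showed almost no relation across genes, as the plot of both effects shows. Across the 11095 genes, which are not independent replicates, Pearson's r between the BMDM and liver log2 fold changes was 0.0055 and Spearman's rho 0.0087. Both effects were negative in 2832 genes and both positive in 2813, while 2641 were lower in *Tshr* MKO BMDMs and higher in livers labelled *Tshr* MKO, against 2809 with the reverse, so 50.9% had the same sign. The BMDM effect was wider, with a standard deviation of 0.69 on the log2 scale against 0.377 in liver. With edgeR quasi-likelihood tests and Benjamini-Hochberg adjustment over all genes, the interaction passed an adjusted p of 0.05 in 3 genes (0.027% of those tested), and all 3 were negative. Other settings passed both signs: 5 negative and 6 positive with upper-quartile scaling, and 8 of each at a mean of 5 CPM. The counts were 424 and 359 with DESeq2, 486 and 574 with limma voom, and 146 and 366 without *Tshr* f/f BMDM replicate 2. At an unadjusted p under 0.05, 975 genes (8.79%) had a negative and 1086 (9.79%) a positive interaction. In BMDMs, 199 genes (1.79%) fell and 143 (1.29%) rose in *Tshr* MKO at the adjusted limit, and 1656 (14.9%) were lower and 1330 (12%) higher at the unadjusted one. In liver 0 genes passed the adjusted limit by edgeR (lowest adjusted p 0.346), with 449 (4.05%) lower and 488 (4.4%) higher at an unadjusted p under 0.05, while DESeq2 passed 157 and limma voom 48. The mean genotype effect passed in 2 genes (0.018%).

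The BMDM calls depended on which libraries were fitted together. With 1 fit for each tissue, 0 BMDM genes passed (2180 at an unadjusted p under 0.05). The 342 calls became 674, 1884 and 288 when *Tshr* f/f BMDM replicates 1, 2 and 3 were left out, 3, 6 and 93 for the *Tshr* MKO BMDMs and 28 to 169 for the livers. The counts of the interaction ranged from 1 to 512 when 1 library was left out, with 110, 512 and 99 calls without *Tshr* f/f BMDM replicates 1, 2 and 3.

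**Figure D1:**
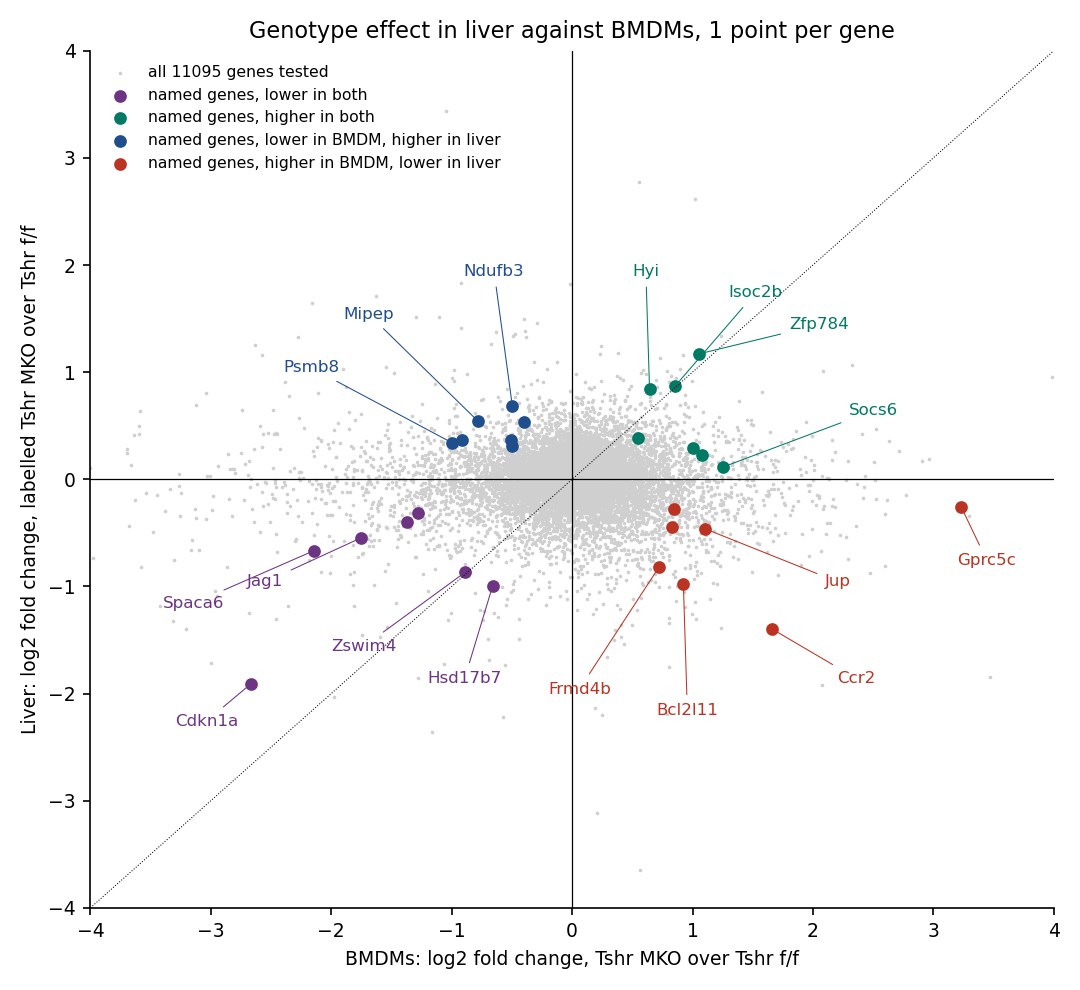
Log2 fold change of *Tshr* MKO over *Tshr* f/f in BMDMs (horizontal axis) and in livers as labelled (vertical axis), with 1 grey point for each of the 11095 genes tested, the 28 named genes in colour, and a dotted line where both effects are equal. The grey cloud is wider along the BMDM axis and has no slope (Pearson's r 0.0055), and 21 genes lie outside the axes.

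In each tissue the groups could be compared by whether the 3 values of 1 genotype all lay above the 3 of the other. This held for 3494 genes (31.5%) in BMDMs, 2155 (19.4%) in liver and 652 in both tissues. Unrelated tissues with these shares would give about as many genes in both, so the classes below describe these libraries and do not show a shared response. Of the 652, 135 (1.22% of the genes tested) were lower in both, 170 (1.53%) were higher in both, 178 (1.6%) were lower in *Tshr* MKO BMDMs and higher in livers labelled *Tshr* MKO, against 169 (1.52%) with the reverse, so 46.8% had the same sign. At an unadjusted p under 0.05 in both tissues the counts were smaller and less even, with 36 lower in both, 41 higher in both, 49 lower in BMDMs and higher in liver and 71 higher in BMDMs and lower in liver. The same sign was then seen in 39.1% of 197 genes, a number no larger than unrelated tissues with the same shares of genes under that limit would give. Without *Tshr* f/f BMDM replicate 3, the genes of the same direction numbered 124 in place of 77 and those of opposite directions 155 in place of 120, and without replicate 2 both counts were 163. With 1 library left out, the lowest count of the same direction was 43 (without *Tshr* MKO liver replicate 1). That of opposite directions was 71 (without *Tshr* MKO BMDM replicate 1). Among the 342 genes called in BMDMs, the median size of the log2 fold change was 1.25 in BMDMs, by which they were chosen, and 0.177 in liver, beside 0.276 and 0.162 over all genes, and 43.9% had the same sign. The named genes below are the 7 in each of the 4 classes with the smallest p of the mean effect (together) or of the interaction (opposed). Separate groups in both tissues, and the directions, were thus conditions of naming these genes and not findings about them.

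*Gprc5c*, *Osbpl11* and *Bcl2l11* were the genes whose interaction passed, and each was higher in *Tshr* MKO BMDMs and lower in livers labelled *Tshr* MKO. A passing interaction shows that the effects differed, not that they were opposite, and the liver effect of none of them passed (lowest edgeR adjusted p over all genes 0.346). *Bcl2l11* (chromosome 2, 128126038–128162547, plus strand, GRCm38) encodes BIM, a BH3-only protein that starts mitochondrial apoptosis. In BMDMs it was at 42.1, 41.3 and 50.1 CPM in controls and 85.1, 74.6 and 93.6 in *Tshr* MKO. Livers labelled *Tshr* f/f held 9.55, 11.5 and 11.4 CPM and those labelled *Tshr* MKO 5.86, 6.53 and 4.04. As the naming rule required, neither tissue had overlapping groups, and the directions were opposite. The log2 fold change was 0.92 ± 0.17 (SE, n = 3 per group) in BMDMs and -0.97 ± 0.18 in liver, an interaction of -1.90 ± 0.24 (edgeR adjusted p = 0.0447).

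*Osbpl11* (chromosome 16, 33185071–33243312, plus strand) belongs to the oxysterol-binding protein family of lipid transfer proteins. It was at 43.5, 40.8 and 40.1 CPM in control BMDMs against 81.0, 66.1 and 76.4 in *Tshr* MKO BMDMs. In liver it was at 30.3, 28.7 and 27.4 CPM under the label *Tshr* f/f and 23.8, 24.4 and 22.99 under *Tshr* MKO. The groups were apart in both tissues, but the liver change was the smaller one. The log2 fold changes were 0.85 ± 0.10 and -0.28 ± 0.10, and the interaction was -1.12 ± 0.14 (edgeR adjusted p = 0.0447).

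*Gprc5c* (chromosome 11, 114851152–114872617, plus strand) encodes an orphan receptor of class C. Control macrophages held 0.26, 0.236 and 0.114 CPM (4 to 14 counts), and those of *Tshr* MKO held 1.47, 2.12 and 2.47 CPM (76 to 138 counts). In livers it was at 93.3, 96.8 and 97.0 CPM under the label *Tshr* f/f and 88.6, 76.0 and 74.9 under *Tshr* MKO. The gene was thus near the floor in control macrophages, and it met the level limit in BMDMs only through the *Tshr* MKO libraries, so its entry into the comparison was not independent of its BMDM change. Its log2 fold change was 3.23 ± 0.26 in BMDMs and -0.26 ± 0.19 in liver, an interaction of -3.49 ± 0.32 (edgeR adjusted p = 0.00568). Its mean effect of 1.49 ± 0.16 also passed (edgeR adjusted p = 0.0132), although the liver value had the other sign. Among all genes tested, 124 met the limit in BMDMs only through *Tshr* MKO and 43 only through *Tshr* f/f.

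Over the alternatives, the interaction of *Gprc5c* stayed between -3.68 and -2.99, that of *Osbpl11* between -1.20 and -1.06 and that of *Bcl2l11* between -2.04 and -1.72. The adjusted p of the *Gprc5c* interaction was 4.44e-19 to 0.084 over these alternatives, that of *Osbpl11* 2.94e-12 to 0.179 and that of *Bcl2l11* 9.2e-10 to 0.179, both at their highest without *Tshr* MKO BMDM replicate 1. Leaving out any 1 of the livers labelled *Tshr* MKO ended the calls of *Osbpl11* and *Bcl2l11* (adjusted p 0.0929–0.131 and 0.057–0.131), as did *Tshr* f/f liver replicate 1 or 2 (0.071 and 0.084 for each gene). Both calls were also lost without *Tshr* MKO BMDM replicate 1 (0.179) or 3 (0.0594), and *Bcl2l11* without *Tshr* MKO BMDM replicate 2 (0.0878) or *Tshr* f/f liver replicate 3 (0.0587). *Gprc5c* passed with any 1 library left out, and all 3 genes passed without *Tshr* f/f BMDM replicate 1, 2 or 3. With the edgeR filter filterByExpr in place of the level limit, *Osbpl11* and *Bcl2l11* did not pass (0.0755 each), with the letter of the liver sample IDs as a term *Osbpl11* did not (0.078), and with the replicate number as a block none of the 3 did (0.084).

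*Jup*, *Frmd4b*, *Rell1* and *Ccr2* completed the genes higher in *Tshr* MKO BMDMs and lower in livers labelled *Tshr* MKO. *Jup* encodes plakoglobin, a catenin of cell junctions, and was at 4.29–4.67 against 7.48–11.1 CPM in BMDMs and 55.8–67.6 against 40.5–48.6 in liver (*Tshr* f/f against *Tshr* MKO). Its interaction was -1.57 ± 0.22 (edgeR adjusted p = 0.0532). *Frmd4b*, a scaffold protein with a FERM domain, was at 76.3–119 against 159–190 CPM in BMDMs and 88.98–94.8 against 44.1–57.9 in liver. *Rell1*, a relative of the receptor RELT, was at 16.7–19.5 against 28.6–36.9 CPM in BMDMs and 13.6–16.2 against 9.12–12.3 in liver. These genes showed the same crossed pattern as the 3 above without passing the limit (edgeR adjusted p 0.0532–0.0833 for the 4).

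*Ccr2* (chromosome 9, 124101950–124113557, plus strand) encodes the receptor of the monocyte chemokine CCL2. It was at 15.8, 10.8 and 8.64 CPM in control BMDMs against 28.6, 34.3 and 48.3 in *Tshr* MKO BMDMs, and it rose there by a log2 fold change of 1.66 ± 0.34 (edgeR adjusted p = 0.0412). In livers labelled *Tshr* f/f it was at 3.85, 3.77 and 1.58 CPM and in those labelled *Tshr* MKO at 1.03, 1.00 and 1.50, a log2 fold change of -1.39 ± 0.39 that did not pass (edgeR adjusted p = 0.393), and it met the level limit in liver only through *Tshr* f/f. The 15 macrophage markers summed to 454–1010 CPM where livers were labelled *Tshr* f/f, to 404–751 in those labelled *Tshr* MKO, and to 12926–14818 and 16904–24533 in BMDMs, and no marker of the list was at 0 in every library of a group. Without *Lyz2*, the locus of the Cre, the BMDM sums of the other 14 overlapped (6368–8322 and 6108–7954 CPM). The 10 Kupffer markers summed to 443–1224 and 393–1027 CPM in liver, which overlapped, and to 774–2102 and 2150–2828 in BMDMs, which did not. Their part in the *Ccr2* values was not tested, and in bulk tissue fewer cells of a type and less RNA per cell cannot be told apart.

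**Figure D2:**
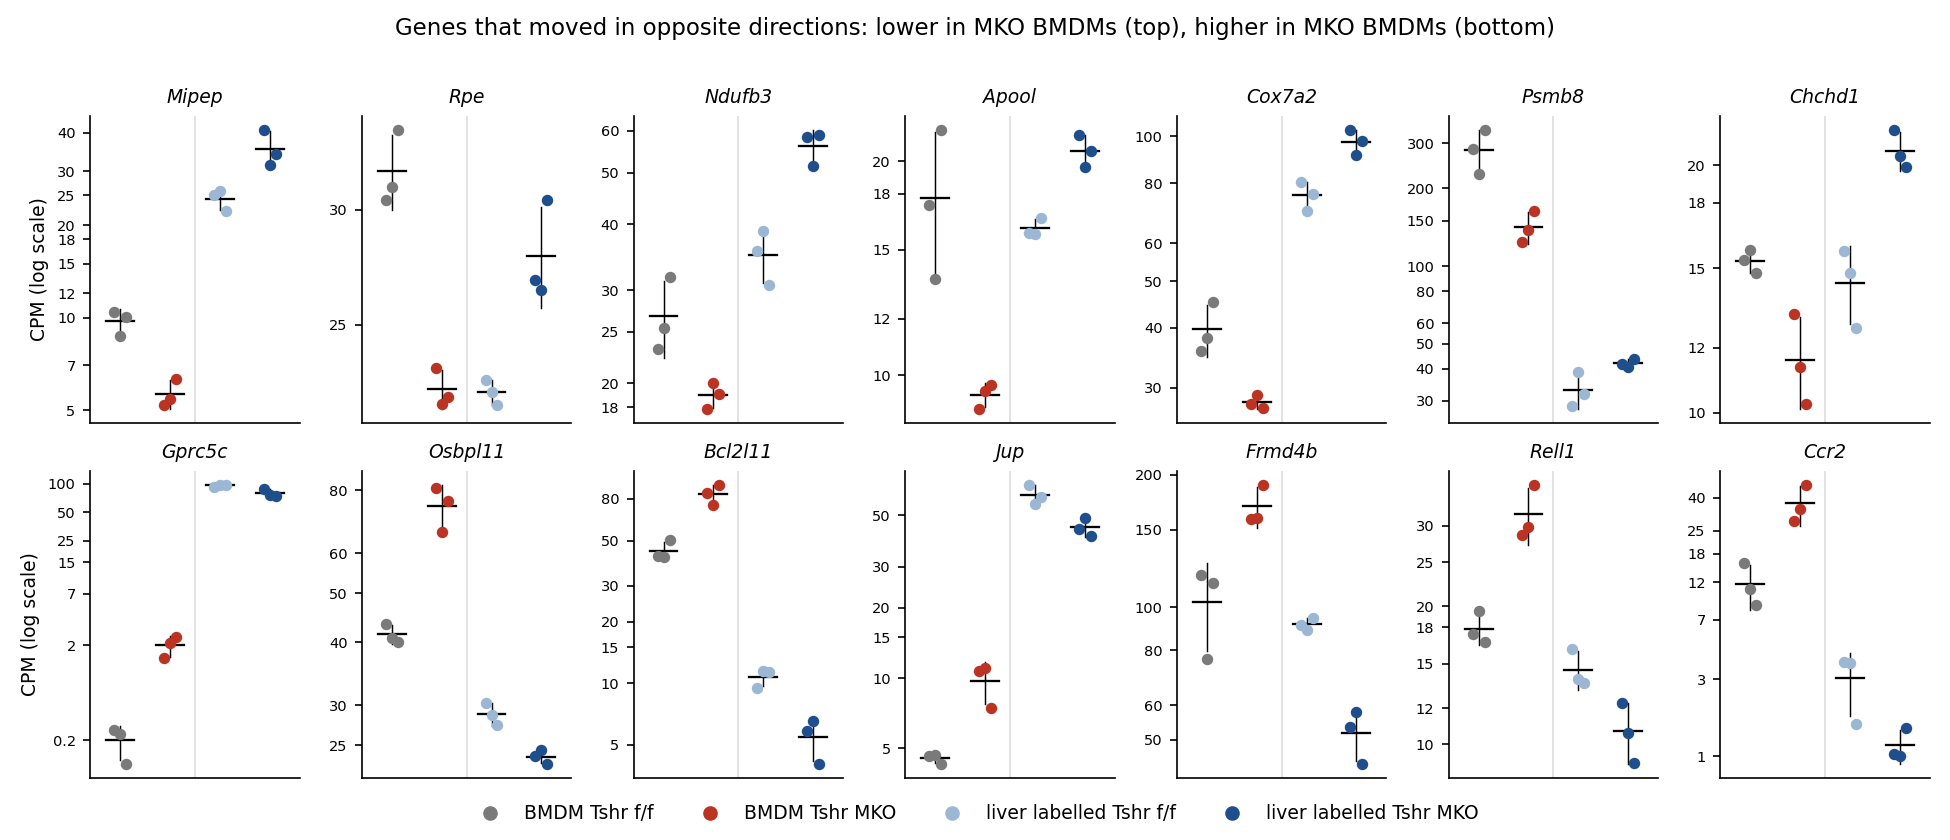
CPM (log scale, each panel with its own axis) of the 14 named genes that moved in opposite directions, with a point for each library, a bar at the group mean and a line for ± SD (n = 3). In the top row *Tshr* MKO is below *Tshr* f/f in BMDMs and above it in livers as labelled, and in the bottom row the order is reversed, as in *Bcl2l11* (41.3 to 50.1 against 74.6 to 93.6 CPM in BMDMs).

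With separate groups, 178 genes (1.6% of those tested) were lower in *Tshr* MKO BMDMs and higher in livers labelled *Tshr* MKO. They included 17 of the 78 nuclear genes of oxidative phosphorylation and 6 of the 78 mitochondrial ribosomal protein genes. A further 4 and 2 genes of these lists had separate groups and were higher in both tissues. Of the 7 genes named from the 178, *Mipep*, *Ndufb3*, *Apool*, *Cox7a2* and *Chchd1* encode mitochondrial proteins. *Rpe* encodes an enzyme of the pentose phosphate pathway and *Psmb8* a catalytic subunit of the immunoproteasome. None of the 7 interactions passed (edgeR adjusted p 0.0532–0.0876). *Mipep* (chromosome 14, 60784573–60905478, plus strand), a peptidase that trims imported mitochondrial proteins, was at 10.4, 8.69 and 10.1 CPM in control BMDMs against 5.18, 5.45 and 6.34 in *Tshr* MKO BMDMs. In liver it was at 25.1, 25.8 and 22.2 CPM under *Tshr* f/f and 40.9, 31.4 and 34.2 under *Tshr* MKO. Groups were apart in both tissues, and the fall in BMDMs passed (log2 fold change -0.78 ± 0.14, edgeR adjusted p = 0.0296), with an interaction of 1.32 ± 0.19.

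*Ndufb3*, a subunit of respiratory complex I, was at 23.2, 25.4 and 31.8 CPM in control BMDMs against 17.9, 20.03 and 19.1 in *Tshr* MKO BMDMs. Livers held 35.6, 38.8 and 30.7 CPM under *Tshr* f/f and 58.3, 51.6 and 58.9 under *Tshr* MKO, so the liver difference was the larger one (log2 fold change 0.68 ± 0.14 against -0.50 ± 0.14 in BMDMs). *Cox7a2*, a subunit of cytochrome c oxidase, was at 35.8–45.1 against 27.2–28.9 CPM in BMDMs and 70.0–80.3 against 91.5–103 in liver. *Chchd1*, a protein of the mitochondrial ribosome, was at 14.8–15.8 against 10.2–13.2 CPM in BMDMs and 12.7–15.7 against 19.9–22.1 in liver. *Apool*, a component of the inner-membrane complex that shapes cristae, was at 13.7–22.1 against 8.96–9.70 CPM and 15.8–16.6 against 19.6–21.8. By the rule that named them, the groups of each of these genes were apart in both tissues. *Psmb8* was at 227–338 against 124–163 CPM in BMDMs and 28.6–38.8 against 40.5–43.7 in liver, and *Rpe* at 30.5–34.1 against 22.1–23.4 and 22.01–22.9 against 26.4–30.5.

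By the smallest p among positive interactions the naming rule, which leaves out symbols of the Gm and Rik kinds, took *Slc25a37*, *Mipep*, *Acsl1* and *H2-Q6*, and for the 3 besides *Mipep* the difference came from BMDMs. *Slc25a37* encodes mitoferrin, the carrier that brings iron into mitochondria, and was at 290, 270.5 and 483 CPM in control BMDMs against 73.3, 64.4 and 97.7 in *Tshr* MKO BMDMs. It was at 33.9–41.5 and 41.2–52.1 CPM in livers, where the groups overlapped. *Acsl1*, which activates long-chain fatty acids, was at 465–962 against 81.7–129 CPM in BMDMs and 1354–2349 against 1717–1946 in liver. *H2-Q6*, a class Ib MHC gene whose close relatives could share its reads, was at 206–321 against 60.2–76.9 CPM in BMDMs and 32.2–60.7 against 48.9–63.1 in liver. The 3 fell in BMDMs by log2 fold changes of -2.15, -2.80 and -1.96 (edgeR adjusted p 0.00685, 0.00685 and 0.0124), their liver values were 0.26, 0.06 and 0.21, and their interactions of 2.41 ± 0.34, 2.86 ± 0.43 and 2.17 ± 0.34 had edgeR adjusted p values of 0.0532, 0.0534 and 0.0682.

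*Jag1* was the gene that moved together with the firmest test. It encodes the Notch ligand Jagged 1 (chromosome 2, 137081456–137116644, minus strand). Control BMDMs held 50.2, 49.2 and 66.0 CPM and *Tshr* MKO BMDMs 19.3, 15.9 and 13.96. Livers held 5.42, 7.44 and 6.49 CPM under *Tshr* f/f and 4.52, 4.20 and 4.56 under *Tshr* MKO. Each *Tshr* MKO value lay below the 3 *Tshr* f/f values of its tissue, and the mean effect was -1.15 ± 0.12 (edgeR adjusted p = 0.0132). The parts were unequal, at -1.75 ± 0.17 in BMDMs (edgeR adjusted p = 0.00448) and -0.55 ± 0.17 in liver (adjusted p = 0.438), with an interaction of 1.20 ± 0.24 (adjusted p = 0.0876). The adjusted p of the mean effect was 1.22e-11 to 0.0756 over 21 alternatives, and the call was lost without *Tshr* MKO BMDM replicate 2, without *Tshr* f/f liver replicate 2 or 3 and without any 1 of the livers labelled *Tshr* MKO (0.0587–0.0756), and with the replicate number as a block (0.0582).

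*Cdkn1a* encodes the cyclin-dependent kinase inhibitor p21 and had the widest mean effect of the 14 named genes that moved together. It was at 170, 103 and 519 CPM in control BMDMs against 42.7, 35.0 and 46.7 in *Tshr* MKO BMDMs. In liver it was at 124, 106 and 150 CPM under *Tshr* f/f and 25.5, 35.8 and 39.7 under *Tshr* MKO. Groups were apart in both tissues, with the widest spread among *Tshr* f/f BMDMs. The log2 fold changes were -2.67 ± 0.51 and -1.91 ± 0.49, with an interaction of 0.76 ± 0.67 (edgeR adjusted p = 0.56). The fall in BMDMs passed (adjusted p = 0.0339), whereas the liver value (0.368) and the mean effect of -2.29 ± 0.35 (0.0843) did not.

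*Hsd17b7* and *Zswim4* had effects of similar size in both tissues. *Hsd17b7*, an enzyme of late cholesterol synthesis, was at 5.42, 6.38 and 7.68 CPM in control BMDMs against 3.65, 4.38 and 4.28 in *Tshr* MKO BMDMs. Livers held 140, 88.6 and 94.2 CPM under *Tshr* f/f and 43.8, 62.7 and 55.9 under *Tshr* MKO. The log2 fold change was -0.66 ± 0.21 in BMDMs and -0.99 ± 0.20 in liver (mean effect -0.83 ± 0.15, edgeR adjusted p = 0.127). *Zswim4*, which holds a SWIM zinc finger, had log2 fold changes of -0.89 ± 0.22 and -0.87 ± 0.23, an interaction of 0.02 ± 0.32. *C1rb*, a complement protease gene with a near copy beside it that could share its reads, *Slc25a33*, a mitochondrial carrier of pyrimidine nucleotides, and *Spaca6* were lower in BMDMs by -1.28, -1.37 and -2.15 (edgeR adjusted p 0.0192, 0.0255 and 0.0257) and in liver by -0.31, -0.40 and -0.67, with separate groups in both tissues.

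The genes higher in both tissues fell into 2 patterns. *Socs6* and *Ubald1* rose in BMDMs by log2 fold changes of 1.25 ± 0.14 and 1.08 ± 0.14 (edgeR adjusted p 0.00685 and 0.0124), with small differences in liver of 0.11 ± 0.14 and 0.23 ± 0.14. *Socs6*, a suppressor of cytokine signaling that binds receptor tyrosine kinases, was at 24.3, 16.2 and 21.4 CPM in control BMDMs against 51.5, 45.4 and 50.8 in *Tshr* MKO BMDMs. Its livers, at 15.5, 14.1 and 15.4 against 16.0, 16.2 and 16.5 CPM, did not overlap but were close. *Prxl2a*, a peroxiredoxin-like protein, also leaned on BMDMs (1.01 ± 0.18, adjusted p = 0.0301, against 0.30 ± 0.18).

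*Hyi*, *Isoc2b*, *Zfp784* and *Gtpbp8* were higher by similar amounts in both tissues. *Hyi*, a hydroxypyruvate isomerase, was at 3.30–4.60 against 5.07–6.85 CPM in BMDMs and 21.6–32.6 against 44.3–50.6 in liver. *Isoc2b*, which has a close relative beside it, was at 0.995–1.71 against 2.10–3.26 CPM in BMDMs and 10.7–13.6 against 20.6–23.02 in liver. Their interactions were 0.20 ± 0.26 and 0.01 ± 0.34. *Gtpbp8*, a GTP-binding protein, rose in BMDMs (0.55 ± 0.12, edgeR adjusted p = 0.0447) and had a liver log2 fold change of 0.39 ± 0.13. *Zfp784*, a zinc finger gene, was near the level limit at 0.54–2.87 CPM and met it in both tissues only through *Tshr* MKO. None of the mean effects of the 7 genes passed (lowest edgeR adjusted p 0.0843).

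**Figure D3:**
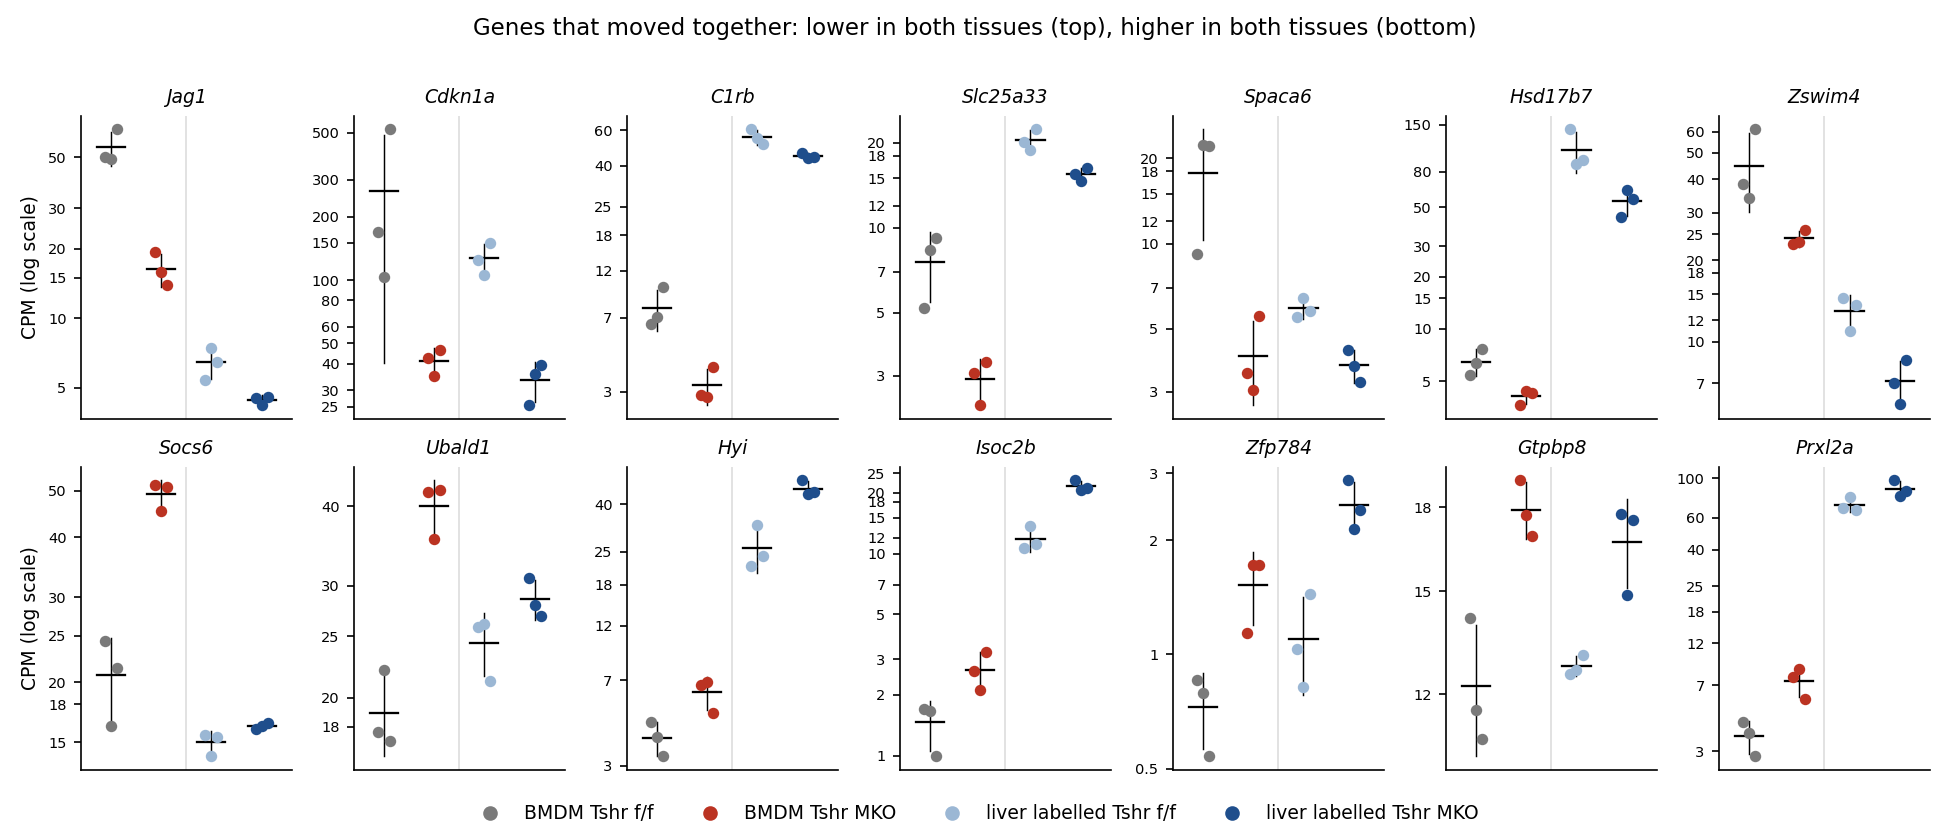
CPM (log scale, each panel with its own axis) of the 14 named genes that moved together, with a point for each library, a bar at the group mean and a line for ± SD (n = 3). The top row is lower and the bottom row higher in *Tshr* MKO in both tissues, by unequal amounts in *Jag1* (49.2 to 66.0 against 13.96 to 19.3 CPM in BMDMs, 5.42 to 7.44 against 4.20 to 4.56 in liver) and by similar amounts in *Isoc2b*.

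Promoters of the named genes were read for 5 motifs of factors that answer cAMP, growth factors, nutrients or time of day. The sequences are RefSeq windows of GRCm38.p6, from 250 bases before to 50 bases after a start site, and 8476 of 11072 gene symbols tested had at least 1. The motifs, on both strands, were the E-box CACGTG, the CRE TGACGTCA, the AP-1 site TGAGTCA, the D-box TTATGTAA and the CArG box, and none of these letter strings contains another. Of the genes with a window, 12.4%, 3.66%, 4.42%, 0.566% and 1.53% held them, in that order. Among the genes with separate groups in both tissues, the CRE share was 8.53% of 129 with a window in those lower in BMDMs and higher in liver, and 3.67%, 1.5% and 3.82% in those lower in both, higher in both and higher in BMDMs but lower in liver. The AP-1 share was 10.7% of 131 in those higher in BMDMs and lower in liver, and 6.42%, 3.01% and 4.65% in the genes lower in both, higher in both and lower in BMDMs but higher in liver. The D-box and CArG box shares were 2.29% (3 genes) and 3.82% (5 genes) in those higher in BMDMs and lower in liver, and 0–0.775% and 0.752–0.917% in the other classes, with at most 1 gene each. The E-box shares lay between 10.9% and 14.5%.

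Among the named genes, a match was found in *Slc25a33* and *Hsd17b7* (E-box, lower in both), *Ubald1*, *Gtpbp8* and *Prxl2a* (AP-1, higher in both, the last with an E-box too), *Chchd1* (E-box, lower in BMDMs and higher in liver) and *Osbpl11* and *Frmd4b* (CArG box and AP-1, higher in BMDMs and lower in liver). A match is a description of these letters, not of a bound factor. The windows of 6 genes that carry a match are shown in the direction of transcription, with the motif in capitals, to set the genes that moved together beside those that were opposed. *Slc25a33* (chr4:149774218-149774517, minus strand) and *Hsd17b7* (chr1:169969156-169969455, minus strand) share the E-box, which begins at positions -8 and -143 from the start site:
Slc25a33: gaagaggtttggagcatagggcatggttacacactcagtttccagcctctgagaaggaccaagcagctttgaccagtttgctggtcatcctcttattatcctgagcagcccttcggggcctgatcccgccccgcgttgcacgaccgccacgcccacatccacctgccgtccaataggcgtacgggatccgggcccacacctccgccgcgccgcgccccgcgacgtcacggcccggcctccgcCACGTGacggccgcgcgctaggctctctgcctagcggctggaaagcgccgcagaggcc
Hsd17b7: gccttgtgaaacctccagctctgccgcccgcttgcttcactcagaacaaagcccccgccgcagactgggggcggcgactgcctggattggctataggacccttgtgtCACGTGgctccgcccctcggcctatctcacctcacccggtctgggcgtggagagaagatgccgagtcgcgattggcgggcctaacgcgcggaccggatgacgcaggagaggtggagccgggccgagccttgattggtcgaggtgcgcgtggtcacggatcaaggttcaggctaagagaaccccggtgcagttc

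*Ubald1* (chr16:4879802-4880101, minus strand) and *Gtpbp8* (chr16:44746314-44746613, minus strand), both higher in both tissues, hold TGAGTCA after the start site:
Ubald1: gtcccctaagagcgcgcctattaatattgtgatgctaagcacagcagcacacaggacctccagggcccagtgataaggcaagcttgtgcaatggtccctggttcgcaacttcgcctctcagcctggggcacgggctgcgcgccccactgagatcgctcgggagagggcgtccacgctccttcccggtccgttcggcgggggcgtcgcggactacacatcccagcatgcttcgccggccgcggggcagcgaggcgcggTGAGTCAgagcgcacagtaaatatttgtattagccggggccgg
Gtpbp8: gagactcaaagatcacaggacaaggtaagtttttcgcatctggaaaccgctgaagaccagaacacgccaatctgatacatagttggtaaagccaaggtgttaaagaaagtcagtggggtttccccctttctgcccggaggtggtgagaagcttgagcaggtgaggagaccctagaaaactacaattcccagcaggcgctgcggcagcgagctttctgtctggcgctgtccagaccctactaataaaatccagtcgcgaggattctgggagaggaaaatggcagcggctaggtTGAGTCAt

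*Chchd1* (chr14:20702777-20703076, plus strand), lower in BMDMs and higher in liver, has an E-box at the far end of its window, and *Osbpl11* (chr16:33184821-33185120, plus strand), with the opposite pattern, a CArG box:
Chchd1: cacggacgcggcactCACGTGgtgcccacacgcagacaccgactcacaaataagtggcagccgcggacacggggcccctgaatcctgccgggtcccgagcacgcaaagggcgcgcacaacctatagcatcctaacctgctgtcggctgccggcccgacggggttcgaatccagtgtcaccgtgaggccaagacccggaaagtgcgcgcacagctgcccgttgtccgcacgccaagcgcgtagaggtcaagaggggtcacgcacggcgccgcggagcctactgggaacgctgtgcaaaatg
Osbpl11: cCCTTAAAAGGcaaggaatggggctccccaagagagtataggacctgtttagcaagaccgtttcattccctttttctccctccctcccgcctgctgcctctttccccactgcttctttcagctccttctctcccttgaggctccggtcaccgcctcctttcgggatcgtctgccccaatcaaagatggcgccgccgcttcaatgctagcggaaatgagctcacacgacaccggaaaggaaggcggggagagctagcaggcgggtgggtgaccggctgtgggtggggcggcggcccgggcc

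Gene lists were then described by the number of their tested genes on each side and by their median log2 fold change, beside medians over all genes of 0.00635 in BMDMs, -0.00518 in liver and 0.0103 for the interaction. Over all genes at an unadjusted p under 0.05, 14.9% were lower and 12% higher in BMDMs, 4.05% and 4.4% in liver, and 8.79% had a negative and 9.79% a positive interaction. In BMDMs 1.79% were called lower and 1.29% higher. By sign, 25.5% of all genes were lower in both tissues and 25.3% higher in BMDMs and lower in liver, while 2641 of the 11095 had the reverse. Mitochondrial genes made up the list with the most even liver response. All 78 nuclear genes of oxidative phosphorylation were higher in livers labelled *Tshr* MKO (median 0.322), 52 of them at an unadjusted p under 0.05 and 0 at the adjusted limit. In BMDMs 48 of the 78 were lower and 30 higher (median -0.0465), and 3 fell at the adjusted limit. The interaction was positive in 73 of 78 (median 0.37, 36 at an unadjusted p under 0.05), and its median stayed between 0.315 and 0.436 over the alternatives. The BMDM median turned positive with upper-quartile scaling (0.029) and without *Tshr* f/f BMDM replicate 2 (0.00479), so the list was higher in liver without a settled direction in BMDMs.

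*Ndufb3* had the highest interaction of that list (1.18 ± 0.19) and *Atpif1*, the inhibitor of ATP synthase, the lowest (-0.26 ± 0.31). *Cycs*, cytochrome c, fell in BMDMs by -0.96 ± 0.18 (edgeR adjusted p = 0.0322) and had a liver log2 fold change of 0.15 ± 0.18. *Uqcr11*, a complex III subunit, had the highest mean effect (0.24 ± 0.16 and 0.51 ± 0.16). Of the 78 mitochondrial ribosomal protein genes, 71 were higher in liver (median 0.215) and 44 lower in BMDMs (median -0.0355), with 40 in the opposed class of lower in BMDMs and higher in liver. Their BMDM median was near 0 in each fit with 1 library left out (-0.0802 to -0.00207). The 13 protein genes of the mitochondrial genome were higher in liver in 11 cases (median 0.381) and in BMDMs in 11 (median 0.105, or 0.205 leaving out *Tshr* f/f replicate 2 and 0.0371 leaving out *Tshr* MKO replicate 3), 8 of them at an unadjusted p under 0.05 in liver and 0 in BMDMs, where the library medians of the groups overlapped. *mt-Nd3* was at 234–284 against 382–417 CPM in liver and 29.2–36.7 against 33.5–36.0 in BMDMs, and *mt-Nd5* was an exception in liver (-0.15 ± 0.17). Cytosolic ribosomal protein genes differed little, with medians of -0.0204 in BMDMs (-0.0482 to 0.0169 with 1 library left out) and 0.0992 in liver (0.0577 without *Tshr* f/f replicate 3) over 79 genes. *Rpl24* was opposed, at 128–224 against 110–124 CPM in BMDMs and 108–116.8 against 124–135 in liver, and *Rpl10a* was higher in both, at 108–132.5 against 145–171 and 125–141 against 146–160.

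Most genes of the interferon response, antigen presentation and the proteasome had lower values in *Tshr* MKO BMDMs. In livers labelled *Tshr* MKO, most interferon and MHC genes had higher values. There 0 of them were called, and the library medians of the groups overlapped for both lists. Of 45 interferon-stimulated genes, 44 were lower in BMDMs (median -1.53, 8 called) and 36 higher in liver (median 0.20, 0 called), and 44 interactions were positive (median 1.77, 27 at an unadjusted p under 0.05, 0 called). *Isg15*, a ubiquitin-like modifier, was at 170, 16.7 and 405 CPM in control BMDMs against 37.4, 34.1 and 16.9 in *Tshr* MKO BMDMs, and *Rsad2*, the antiviral enzyme viperin, at 397, 55.8 and 967 against 72.6, 69.2 and 43.3. *Tshr* f/f replicate 2 therefore lay just below the *Tshr* MKO range for *Isg15* and within it for *Rsad2*. The list as a whole behaved alike: its median level in that library was -1.43 log2 units against the *Tshr* f/f mean, lower than in the *Tshr* MKO libraries (-1.27 to -1.04). Leaving out *Tshr* f/f replicate 2 gave a BMDM median of -2.03 and replicate 3 one of -1.0. With each library left out, the interaction median was 1.18 to 2.23, and in liver the median was 0.0642 when *Tshr* f/f replicate 1 was left out and 0.0977 for *Tshr* MKO replicate 3. *Cxcl10*, an interferon-inducible chemokine, showed the same spread, at 569.7, 21.5 and 806 CPM against 11.4, 9.94 and 15.2 in BMDMs, where the groups were apart, and 1.66–2.89 against 3.41–7.90 in liver (interaction 6.35 ± 1.34, edgeR adjusted p = 0.0977). *Irf9* and *Ifi27* were the flattest of the list, at -0.11 ± 0.18 and 0.15 ± 0.25 in BMDMs and 0.14 ± 0.18 and -0.14 ± 0.25 in liver.

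Some marker sums of other cells differed in BMDMs too: the 6 dendritic cell markers summed to 15–38.6 CPM in controls and 50.6–66.0 in *Tshr* MKO and the 5 B cell markers to 5.29–13.3 and 14.7–25.5, with *Siglech* alone at 0 in all 3 control libraries. Only 2 of the 6 and 1 of the 5 met the level limit. The neutrophil sums overlapped (232–551 and 161–331 CPM), as did the T and NK, endothelial, stellate and cholangiocyte sums. Their part in these lists was not tested. MHC genes were lower in BMDMs in 15 of 21 (median -0.655, 7 called) and higher in liver in 20 (median 0.209). The list levels of the groups overlapped in both tissues, with *Tshr* f/f BMDM replicate 2 at -0.489 within the *Tshr* MKO range (-0.731 to -0.476). The BMDM median was -0.43 without *Tshr* f/f BMDM replicate 3, and the liver median was 0.0694 and 0.368 without *Tshr* f/f liver replicates 1 and 2. *H2-Eb1*, a class II gene, and *Ciita*, the class II regulator, had no clear direction in BMDMs, at 140–555 against 215–1296.5 CPM and 19.2–80.6 against 39.6–171. All 41 proteasome subunit genes were lower in BMDMs (median -0.533, 36 at an unadjusted p under 0.05, 8 called), and in liver 26 were lower and 15 higher (median -0.0522). The interaction was positive in 40 of the 41, with a median of 0.482 that was 0.218 without *Tshr* f/f BMDM replicate 3, where the BMDM median was -0.302, and the liver median had no settled direction (-0.126 to 0.0117 with 1 library left out). *Psme2*, a subunit of the PA28 activator, was at 347, 200 and 575 CPM in control BMDMs against 123, 138 and 131 in *Tshr* MKO BMDMs, and at 47.6–55.8 and 59.3–69.1 in liver, so the groups were apart with opposite signs in both tissues. The constitutive subunit *Psmb1* had log2 fold changes of -0.15 ± 0.10 and 0.01 ± 0.10, and *Psmd9* of -0.10 ± 0.15 and -0.27 ± 0.15.

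**Figure D4:**
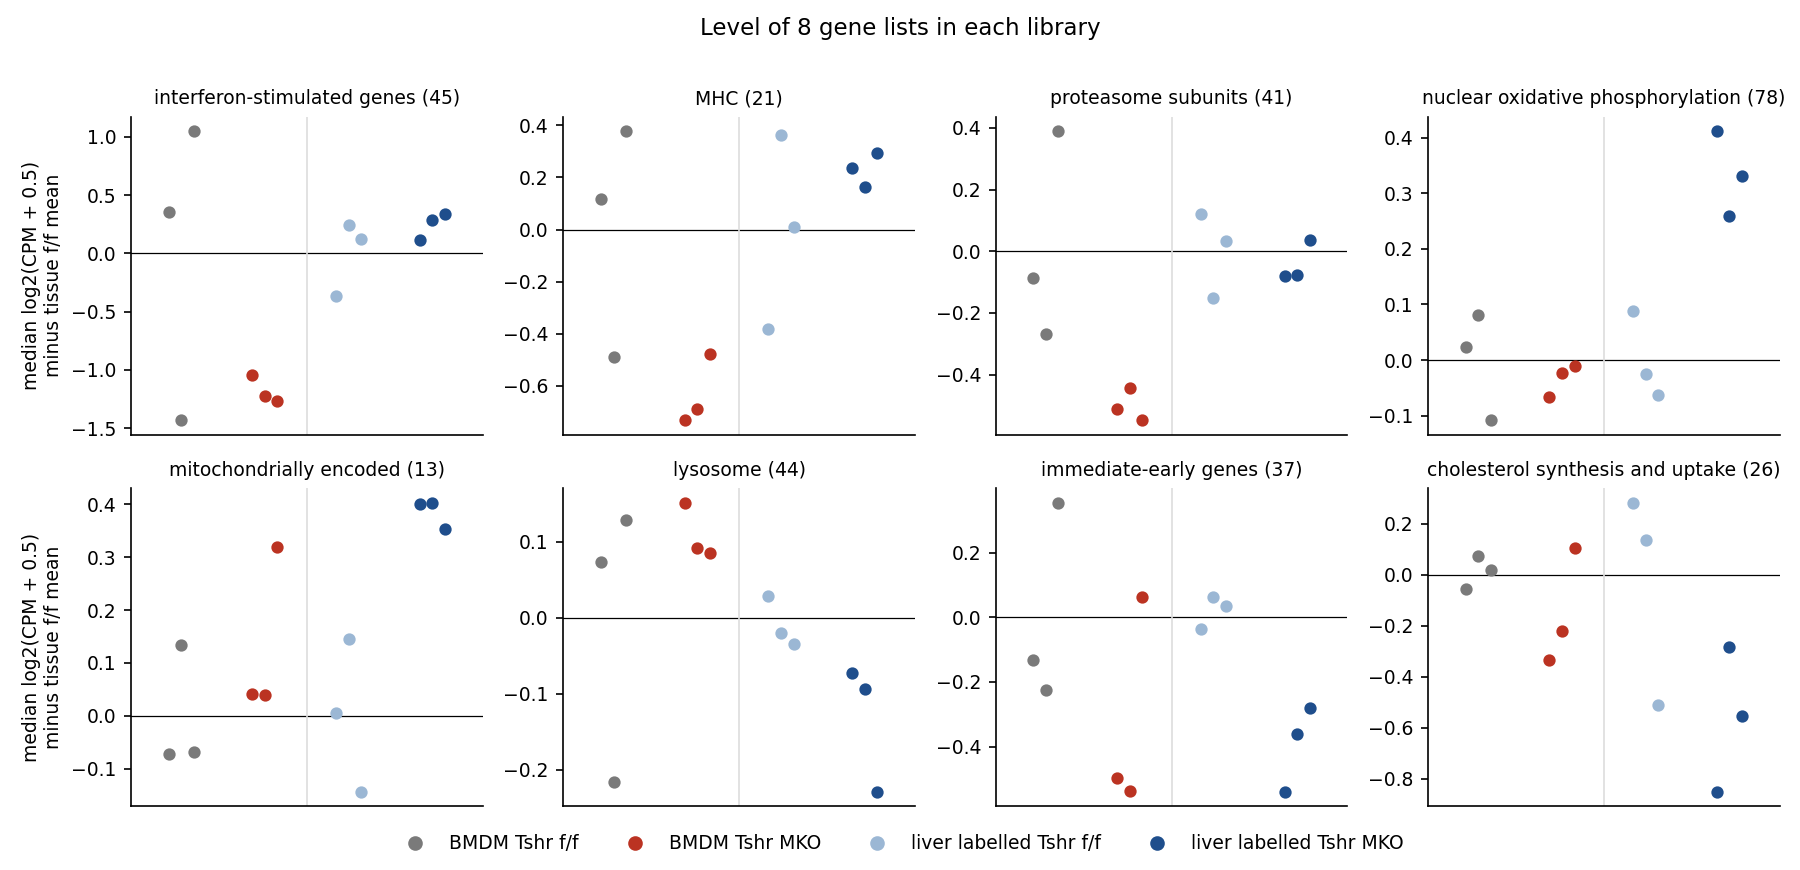
Median level of 8 gene lists in each library (number of genes in brackets), as log2(CPM + 0.5) minus the mean of the *Tshr* f/f libraries of the same tissue, each panel with its own axis. The interferon list reaches from -1.43 to 1.05 within *Tshr* f/f BMDMs, whereas the 3 livers labelled *Tshr* MKO lie above the 3 labelled *Tshr* f/f for nuclear oxidative phosphorylation (0.259 to 0.412 against -0.0632 to 0.0876).

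Signaling genes differed in how far they moved together. Of 42 genes of TNF and NF-κB signaling, 37 were lower in BMDMs (median -1.01, 6 called) and 28 in liver (median -0.118), and 24 were lower in both. The BMDM median was -0.599 and the interaction median 0.504 in place of 0.937 without *Tshr* f/f replicate 3, the liver median was -0.0641 without *Tshr* f/f liver replicate 2 and -0.18 without *Tshr* MKO liver replicate 2, and the list level of *Tshr* f/f BMDM replicate 2 (-0.802) lay within the *Tshr* MKO range (-0.943 to -0.732). *Vcam1*, an adhesion molecule, was lower in both by -3.58 ± 0.76 (edgeR adjusted p = 0.0424) and -0.82 ± 0.70, though its livers overlapped at 22.9–65.4 against 19.6–29.7 CPM. *Tab1*, an adaptor of the kinase TAK1, had the lowest interaction of the list (-1.23 ± 0.40). Immediate-early genes, which are transcribed within minutes of a stimulus, were lower in 30 of 37 in liver (median -0.369) and in 23 in BMDMs (median -0.288), and 20 were lower in both. The BMDM median was 0.0203 and the interaction median -0.198 without *Tshr* f/f BMDM replicate 3, so this list had no settled direction in BMDMs. *Gadd45g*, a growth-arrest gene, went opposite ways, at 4.26–6.90 against 10.97–11.8 CPM in BMDMs and 86.3–107.2 against 23.4–59.5 in liver (interaction -2.16 ± 0.41, edgeR adjusted p = 0.0876). *Rhob*, a small GTPase, rose in BMDMs by 1.46 ± 0.28 (adjusted p = 0.034) and was at 0.01 ± 0.27 in liver, and *Maff*, a small MAF factor, was at -3.30 ± 0.89 and -0.75 ± 0.85.

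In the JAK-STAT list, 12 of 26 were lower in both, beside 25.5% of all genes tested. The list median was -0.221 in BMDMs (-0.348 to -0.0519 with 1 library left out). In liver it was -0.0794 (-0.143 to -0.0592), and the library medians of the groups overlapped in both tissues. *Socs3*, a feedback inhibitor of cytokine receptors, was at 80.2–919 against 25.5–70.8 CPM in BMDMs and 22.3–53.9 against 8.85–27.7 in liver, with a mean effect of -2.30 ± 0.62. *Jak2* fell in BMDMs (-2.41 ± 0.42, edgeR adjusted p = 0.0297) and was at -0.07 ± 0.41 in liver, and *Il6ra* was at 1.19 ± 0.43 and -0.31 ± 0.42. Of 19 genes of the glucocorticoid receptor list, 16 were lower in liver (median -0.335, and -0.209 without *Tshr* MKO liver replicate 1) and 11 in BMDMs (median -0.561, but 0.0469 without *Tshr* f/f BMDM replicate 3, so with no settled direction). *Tsc22d3*, which encodes the glucocorticoid-induced protein GILZ, was higher in BMDMs, at 2.05–10.4 against 17.9–25.4 CPM, and overlapped in liver (234–392 against 326–390). *Zbtb16*, which met the level limit in BMDMs only through *Tshr* MKO, was at 0.142–0.501 against 1.25–1.72 CPM there and at 116.8–169 against 46.1–135 in liver. *Hsd11b1*, which met it only through *Tshr* f/f, had 10.6 CPM in 1 *Tshr* f/f BMDM library against 0.119–1.54 in the other 5.

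The clock list had no common direction, with 12 of 18 genes higher in BMDMs (median 0.135, or 0.0839, 0.24 and 0.225 leaving out *Tshr* f/f replicates 1, 2 and 3 and 0.256 leaving out *Tshr* MKO replicate 2) and 11 lower in liver (median -0.117, but 0.0633 without *Tshr* f/f liver replicate 2). *Nr1d1*, the nuclear receptor REV-ERBα that represses clock genes, was at 1.89, 1.92 and 1.48 CPM in control BMDMs against 8.64, 6.58 and 6.14 in *Tshr* MKO BMDMs (log2 fold change 2.00 ± 0.22, edgeR adjusted p = 0.00685). In liver it was at 108–177 against 128–169 CPM, with overlapping groups, and the interaction was -2.01 ± 0.29 (adjusted p = 0.0532). *Dbp*, a clock output factor, was higher in both, at 0.625–1.43 against 4.22–5.51 CPM in BMDMs and 11.1–60.5 against 57.4–73.9 in liver, where 1 library overlapped. *Cry1*, a clock repressor, fell in BMDMs (-1.22 ± 0.21, adjusted p = 0.0296) and was at 0.23 ± 0.22 in liver, and *Nfil3* was at -1.70 ± 0.60 and -0.33 ± 0.59.

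**Figure D5:**
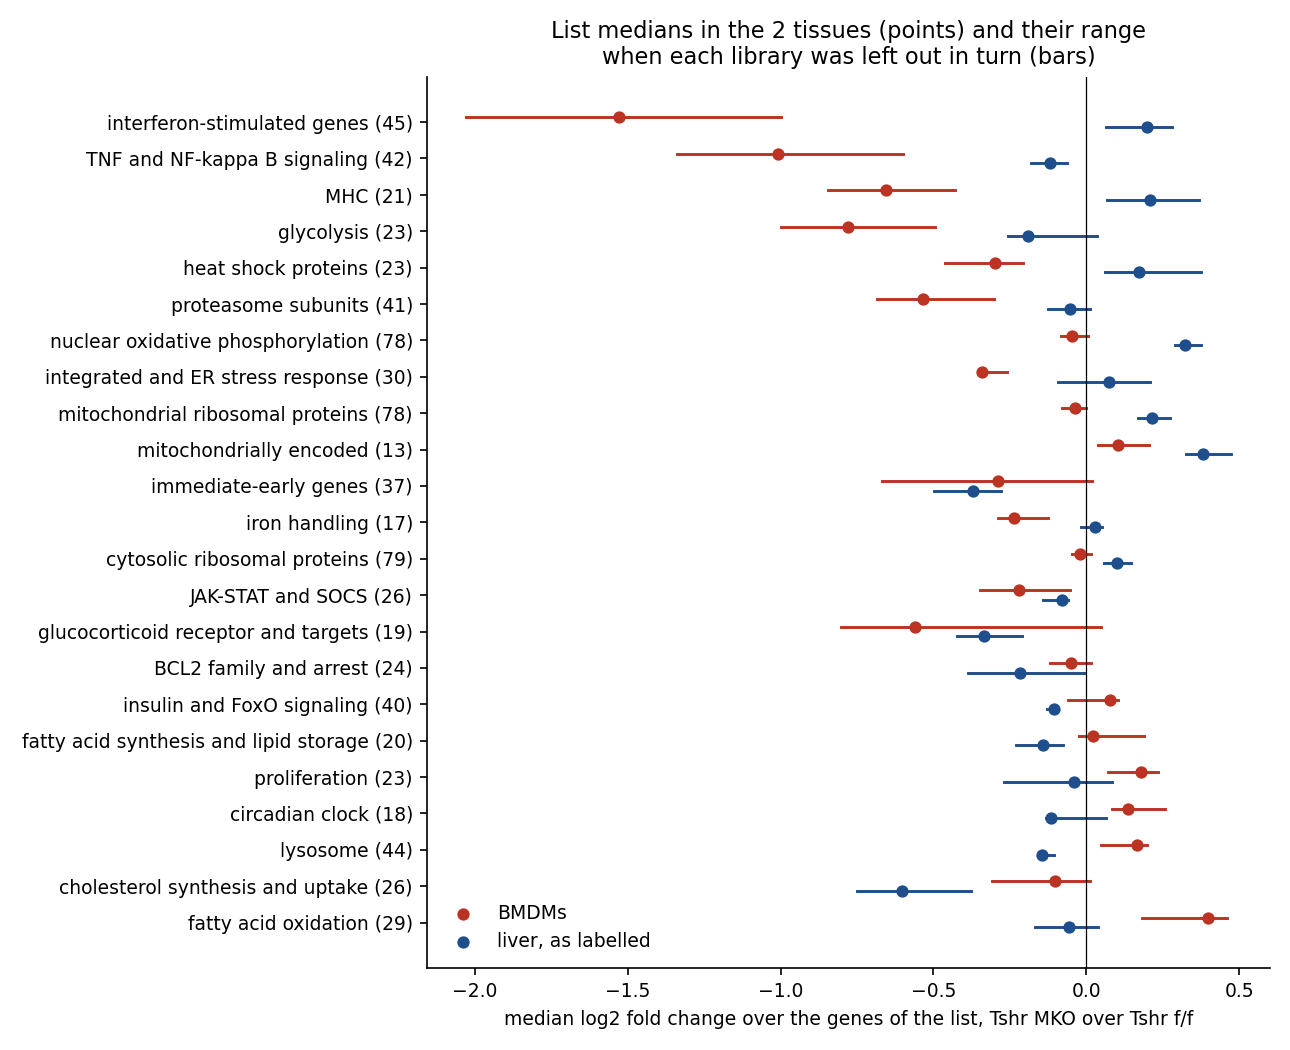
Median log2 fold change of 23 gene lists in BMDMs and in livers as labelled (number of genes tested in brackets), ordered by the median interaction, with bars from the lowest to the highest median when each library was left out. The interferon list has the widest gap (-1.53 against 0.20), and the lists at the bottom, fatty acid oxidation and cholesterol synthesis, lie further to the left in liver than in BMDMs.

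Of 26 genes of cholesterol synthesis and uptake, 23 were lower in livers labelled *Tshr* MKO (median -0.603, 13 at an unadjusted p under 0.05), 19 were lower in BMDMs (median -0.103) and 18 in both, and 22 interactions were negative (median -0.30), 4 of them and 0 positive ones at an unadjusted p under 0.05 and 0 called. In BMDMs the median had no settled direction, since leaving out *Tshr* MKO replicates 1 and 3 gave 0.0118 and -0.307, and *Tshr* f/f replicate 1 gave -0.188. Leaving out the first *Tshr* f/f liver gave a liver median of -0.376 and an interaction median of -0.168, which was -0.494 when the third was left out and -0.197 when the first *Tshr* MKO liver was. Single livers differed widely: the list median of *Tshr* f/f replicate 3 was at -0.512 on the log2 scale against the mean of its group and lay within the range of the livers labelled *Tshr* MKO. *Dhcr7*, the last enzyme of one branch, was opposed, at 3.16–10.99 against 14.7–18.8 CPM and 49.4–84.7 against 37.7–46.3 (interaction -1.78 ± 0.54), and *Tm7sf2* had the highest mean effect (0.42 ± 0.30).

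Of 29 genes of fatty acid oxidation, 21 were higher in BMDMs (median 0.398) and 16 lower in liver (median -0.0567). At an unadjusted p under 0.05 there were 3 negative and 2 positive interactions, near the shares over all genes (8.79% and 9.79%). Without *Tshr* f/f BMDM replicate 3 the BMDM median was 0.183 and the interaction median -0.224 in place of -0.341. The liver median had no settled direction: leaving out *Tshr* f/f livers 1, 2 and 3 gave -0.013, -0.168 and 0.04, and leaving out *Tshr* MKO livers 2 and 3 gave 0.0077 and -0.108. *Cd36*, a fatty acid transporter, was at 308–469 against 567–809 CPM in BMDMs and 51.1–85.5 against 38.6–128 in liver. *Acot1*, a thioesterase with close relatives, was at 0.199–0.817 against 1.20–2.30 CPM in BMDMs, where it met the level limit only through *Tshr* MKO. Of 20 genes of fatty acid synthesis and storage, 11 were higher in BMDMs and lower in liver, and 4 negative and 3 positive interactions were under the unadjusted limit. *Dgat2*, which makes triglycerides, met the level limit in BMDMs only through *Tshr* f/f, at 1.08–17.8 against 0.348–0.594 CPM, and was at 406–512 against 471–508 in liver. *Lpin1*, a phosphatidate phosphatase, was at 1.14–7.04 against 16.5–28.4 CPM in BMDMs and varied from 174 to 1028 among livers.

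Lysosome genes were lower in 36 of 44 in liver (median -0.145) and higher in 26 in BMDMs (median 0.165), and 32 interactions were negative (median -0.289, 14 at an unadjusted p under 0.05). In BMDMs the median fell to 0.0481 when *Tshr* f/f replicate 2 was left out and to 0.106 and 0.101 for *Tshr* MKO replicates 2 and 3. *Atp6v0a1*, a subunit of the proton pump, rose in BMDMs from 42.2–114 to 181–236 CPM (edgeR adjusted p = 0.0362) and was at 53.8–69.9 against 51.4–54.8 in liver. *Tfeb*, the transcription factor of lysosome genes, was at 3.61–21.2 against 33.1–37.7 CPM in BMDMs and 8.38–10.4 against 6.02–8.92 in liver, and *Atp6v1e1* went the other way in BMDMs (-0.86 ± 0.28). Glycolysis genes were lower in BMDMs in 20 of 23 (median -0.78) and in liver in 15 (median -0.191), but without replicate 2 of the *Tshr* f/f BMDMs or livers these medians were -0.495 and 0.0361. Over all alternatives the BMDM median was -1 to -0.273. The library medians overlapped in both tissues, with *Tshr* f/f BMDM replicate 1 at -0.562 within the *Tshr* MKO range (-0.774 to -0.462). *Slc2a1*, the glucose transporter GLUT1, was lower in both, at 74.2–319 against 30.6–46.8 CPM (adjusted p = 0.0383) and 13.1–21.8 against 10.2–13.5. *Pfkfb3* and *Pfkfb4*, 2 isoforms of the enzyme that makes the activator of phosphofructokinase, had interactions of opposite sign (1.85 ± 0.68 and -1.41 ± 0.88), and *Pfkm* was at -0.10 ± 0.21 in BMDMs and 0.29 ± 0.21 in liver.

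Of 23 heat shock genes, 21 were lower in BMDMs (median -0.297) and 20 higher in liver (median 0.171), 19 were opposed in this way, and the median interaction was 0.615, with 0 called and 10 positive at an unadjusted p under 0.05. Leaving out *Tshr* MKO BMDM replicate 2 gave a BMDM median of -0.462, and leaving out the third control an interaction median of 0.404. The liver median moved with each liver left out but the first labelled *Tshr* f/f, to 0.0888 and 0.35 for the other 2 of that label and to 0.376, 0.0861 and 0.0599 for *Tshr* MKO replicates 1, 2 and 3. *Hspa1a*, an inducible HSP70 gene with a near-identical copy, was at 8.32–11.3 against 2.51–4.52 CPM in BMDMs and 27.7–127 against 82.6–163 in liver. *Bag3*, its cochaperone, was at 0.32 ± 0.26 and 0.74 ± 0.26, *Stip1* at -0.84 ± 0.28 and 0.10 ± 0.28 and *Cryab* at 0.12 ± 0.33 and -0.20 ± 0.35. Of 30 genes of the integrated and ER stress response, 24 were lower in BMDMs (median -0.34). In liver 18 were higher and 12 lower (median 0.0751), with no settled direction (-0.0917 to 0.209 with 1 library left out). *Asns*, asparagine synthetase, was at 31.5–59.7 against 8.93–28.2 CPM in BMDMs and 13.1–80.8 against 4.25–11.4 in liver, apart in both tissues, with a mean effect of -1.76 ± 0.51. *Ppp1r15a* was at -1.50 ± 0.40 and 0.20 ± 0.40, and *Sdf2l1* at 0.10 ± 0.52 and 0.24 ± 0.52.

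In the insulin and FoxO list, 31 of 40 were lower in liver (median -0.104) and 23 higher in BMDMs (median 0.0787). Its direction in BMDMs was not settled, with a median of 0.0244 when *Tshr* f/f replicate 2 was left out and -0.061 for *Tshr* MKO replicate 3. *Sesn1*, a stress sensor that restrains mTORC1, rose in BMDMs from 2.87–19.97 to 49.0–60.5 CPM (edgeR adjusted p = 0.0498) and was at 10.3–16.1 against 10.4–12.4 in liver. *Map2k1* fell in BMDMs (-1.11 ± 0.25, adjusted p = 0.0446) with -0.10 ± 0.24 in liver, and *Trib3* was at -1.18 ± 0.46 and -0.23 ± 0.46. Among 24 genes of the BCL2 family and cell-cycle arrest, the medians were -0.0504 in BMDMs (-0.119 to 0.0139 with 1 library left out) and -0.217 in liver (-0.388 to -0.00863, the ends being without *Tshr* f/f liver replicates 1 and 2), and *Bcl2a1d*, a survival gene with several copies, was at 31.0–226 against 16.9–27.0 CPM in BMDMs and 0.359–5.68 against 0.423–3.33 in liver. Of 17 iron genes, 5 were lower in both tissues, 4 higher in both, 5 lower in BMDMs and higher in liver and 3 the reverse. Over all 11095 genes these classes held 2832, 2813, 2641 and 2809. *Slc39a14*, a metal importer, was at 32.4–199 against 13.2–18.9 CPM in BMDMs and 443–676 against 441–653 in liver, *Slc40a1*, the iron exporter ferroportin, at 2.46–20.6 against 17.2–31.8 and 84.2–164 against 122–146, and *Steap3* at 1.50 ± 0.52 and 0.51 ± 0.51. Of 23 proliferation genes, 17 were higher in BMDMs (median 0.178) and 13 lower in liver (median -0.0412). Leaving out *Tshr* f/f BMDM replicate 3 gave a BMDM median of 0.085 and *Tshr* MKO replicate 2 one of 0.0719, and the liver median had no settled direction (-0.269 to 0.0849 with 1 library left out). *Gins2*, a replication factor, was at 1.80–2.60 against 0.766–1.46 CPM in liver, where it met the level limit only through *Tshr* f/f, and overlapped in BMDMs, *Mki67* was at -1.25 ± 0.55 and 0.20 ± 0.57, and *Tk1* at 0.25 ± 0.39 and 0.73 ± 0.39.

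*Lyz2*, the locus that carries the Cre, was itself unlike in the tissues. It was at 6558, 7252 and 6496 CPM in control BMDMs against 11949, 10796 and 16578 in *Tshr* MKO BMDMs, with no overlap. Livers labelled *Tshr* f/f held 36.7, 81.2 and 60.8 CPM and those labelled *Tshr* MKO 2.15, 145 and 58.1, so 1 liver labelled *Tshr* MKO had 56 counts where the others had 818 to 4473. In that liver *Csf1r* and *Adgre1*, other macrophage genes, were at 109 and 29.7 CPM, within the range of the other livers. The neutrophil markers summed to 22.7–153 CPM where livers were labelled *Tshr* f/f, against 23.6–42.1 in those labelled *Tshr* MKO, with *Ngp* at 668 counts in *Tshr* f/f replicate 1 and 51–222 in the other 5. The endothelial (74.5–297 against 192–259 CPM) and stellate (49.1–439 against 164–259) sums overlapped in liver too, and the part of these cells in the liver values was not tested.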

How the data were processed

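The authors deposited 1 table of read counts per gene for 12 RNA-seq libraries, with 3 for each of the groups *Tshr* f/f and *Tshr* MKO in BMDMs and liver. The submitters' processing notes name FastQC 0.11.2, STAR, StringTie and mm10 without roles. The counting step is not given in the sources used here, nor whether it used strand. Of the 55335 genes, 55154 were in GENCODE M21, which gave the coordinates (GRCm38).

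All libraries entered 1 model with 4 groups in edgeR 4.0.16 (R 4.3.3; TMM factors, robust quasi-likelihood F tests, two-sided), on the 11095 genes with a mean of 1 CPM or more (of the library total, without the TMM factor) over the 6 libraries of each tissue. P-values were adjusted by Benjamini-Hochberg over all genes, with a limit of 0.05 and 8 residual degrees of freedom. The authors' own test (the MARS model of DEGseq) takes no spread between replicates and was replaced. The SE is the size of a log2 fold change over the square root of F. Libraries held 28962878 to 40954211 counts, and the median SE of an interaction was 0.283, which bounds the precision.

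The named genes are the 7 of each class with separate groups in both tissues and the smallest p, the 4 of each sign with the smallest interaction p, *Tshr*, *Lyz2*, and the extremes of each gene list, leaving out repeated, Gm and Rik symbols. Some extremes of the lists are not described, and 1 gene is not reported here. *Csf1r*, *Adgre1*, *Ngp*, *Alb*, *Apoa1* and *Clec4f* are marker genes. The genes, lists and comparisons were chosen with earlier results of these data known. The alternatives were RLE, upper-quartile and within-tissue TMM scaling, filterByExpr, a mean of 5 CPM, DESeq2 1.42.0, limma 3.58.1 voom with sample weights, 1 fit for each tissue, a replicate block, the letter of the liver sample IDs and each library left out. The exchange of the liver labels was added after seeing the data. The scripts were tested on simulated counts in which the liver effect was changed in 200 genes. The interaction test called 8% of the 2-fold and 71% of the 4-fold changes, so most 2-fold interactions were missed. Of its 85 calls, 7.06% were unchanged genes. Figures used python 3.11.15 and matplotlib 3.10.9.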

Additional observations from a re-analysis of the deposited data

Results flagged for a closer look

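*Gprc5c*, *Osbpl11* and *Bcl2l11* stood out because the test of the difference between the genotype effects of liver and BMDMs passed for them, with interactions of -3.49, -1.12 and -1.90 on the log2 scale. *Gprc5c* was near its floor in *Tshr* f/f BMDMs. Dixon's test of single outlying samples was not applied, since the groups held 3 libraries each.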

How the results depend on the processing

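The interaction passed in 3 genes, and the count was 11 with upper-quartile scaling (5 negative, 6 positive), 1 with filterByExpr, 16 at a mean of 5 CPM (8 of each sign), 783 with DESeq2, 1060 with limma voom and 1 to 512 with 1 library left out. The 342 BMDM calls became 150 with filterByExpr, 1816 with DESeq2, 2699 with voom, 0 with 1 fit for each tissue, 46 with the letter of the liver IDs and 3 to 1884 with 1 library left out. In liver, 0 genes passed in edgeR under each setting, 157 with DESeq2 and 48 with voom. The 2 calls of the mean effect became 0 at 5 CPM, 590 with DESeq2, 815 with voom and 0 to 517 with 1 library left out. Genes under 0.05 in both tissues with the same direction (77) were 121 with DESeq2, 259 with voom, 121 with 1 fit for each tissue and 43 to 163 with 1 library left out, and those with opposite directions (120) 332 with voom and 71 to 163. The cause of these shifts was not tested. Pearson's r across genes stayed between -0.12 and 0.0498.

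Whether the replicate numbers pair the samples could not be settled with 3 libraries per group. Same-numbered libraries had correlations of their deviations of 0.119, 0.0293 and 0.0863 in BMDMs and -0.0232, 0.326 and 0.0301 in liver. For libraries of different numbers the values were -0.181 to 0.147 in BMDMs and -0.424 to 0.373 in liver. With the number as a replicate block, 0 interactions, 144 BMDM genes and 7 mean effects passed, and *Gprc5c*, *Osbpl11* and *Bcl2l11* had an adjusted p of 0.084.

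Among named genes, 17 values changed sign, 0 of them called. With voom the *Ciita* interaction was 1.06 and the *H2-Eb1* mean effect -0.0828. With 1 library left out, the interaction of *Hsd11b1* was -0.748 to 4.31, of *Ciita* -1.13 to 0.415 and of *Asns* -1.71 to 0.175. The mean effect was -0.0499 to 0.0816 for *mt-Nd5*, -0.206 to 0.0285 for *Rpl24*, -0.0744 to 0.11 for *Irf9*, -0.00291 to 0.56 for *Sdf2l1* and -0.00386 to 0.228 for *Pfkm*. A further 2172 values of named genes kept their direction and side of the limit, 29 lost and 242 gained a call.

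With the liver labels exchanged, *Gprc5c* and *Jag1* passed for the interaction and *Bcl2l11*, *Gprc5c* and *Osbpl11* for the mean effect, with 120 genes of the same and 77 of opposite direction under 0.05 in both tissues. A count of 3 was worth 0.0733–0.104 CPM, and n was 3 libraries per group.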
